A study of Apis mellifera with 2 samples.

Results

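The genes described here are the honey bee troponins TpnI, TpnT, TpnCIIa and TpnCIIb and the arginine kinase gene Argk. They were chosen by their RefSeq records, with the version of the record ignored, and all 5 were found, each with 1 record, among the 5924 mRNA records of the count table. The mRNA profiles came from 2 libraries of queen larvae of Apis mellifera ligustica (strain ZND No.1). In the treated group each larva received 5 µl of miR-184 at 100 ng/µl, and in the control group 5 µl of DEPC-treated water without miRNA. Both groups were reared in queen cells and held between 20 and 25 queen cells. The larvae were fed at an age of 26 to 32 hours after hatching, and the same treatment was repeated a day later. The comparison asks how adding miR-184, a miRNA of the jelly given to worker larvae, alters the mRNAs of queen larvae. Each condition has 1 library, so no difference below has a replicate check, and the tests compare these libraries and not the conditions. The number of larvae behind a library and their age at collection are not given in the sources used here.

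Striated muscle is switched on by calcium through the troponin complex, which sits with tropomyosin on the thin (actin) filament. Troponin C binds the calcium, troponin I holds back the contact of actin and myosin in its absence, and troponin T fastens the complex to tropomyosin. Insects carry several troponin C genes, and in Drosophila these differ in the muscles and stages in which they are used. Arginine kinase moves phosphate between ATP and arginine, and phosphoarginine serves insect muscle as a quick store of energy in the way that phosphocreatine serves vertebrates. It is also made outside muscle.

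Argk and TpnI were 1.38 and 1.36 times as abundant in the library of larvae fed miR-184 as in that of larvae fed water. The ratio was 1.57 for TpnCIIa, at low counts, 1.07 for TpnCIIb and 0.73 for TpnT, the single gene of the 5 with fewer tags in the miR-184 library. No gene of the 5 was called different (more than 2-fold apart, with Audic-Claverie p under 0.01, the study's thresholds as applied here to the deposited counts), against 9.01% of all mRNAs. Without the ratio threshold, Argk and TpnI had a p under 0.01, as did 20.5% of all mRNAs (8.83% higher and 11.6% lower in the miR-184 library). The call of 2 genes in 5 is thus read against a background in which 1 mRNA in 5 was called. This share was higher at the depth of the 2 genes. It was 54.2% among mRNAs with a mean of 200 to 1000 tags, as for TpnI. Among those with 1000 tags or more, as for Argk, it was 78.2%. Both calls were lost when variation between libraries was assumed on top of counting error. This held for a coefficient of variation of 0.2 (under which 4.42% of all mRNAs had p under 0.01) and of 0.4 (0.371%). At 0.2 the same 262 mRNAs passed with and without the 2-fold threshold. The assumed value thus fixed the loss for Argk and TpnI, whose ratios are smaller, at any depth. The libraries held 1353258 (miR-184) and 1338190 (water) tags, so that a single tag stood for 0.739 and 0.747 TPM, the unit used below for tags scaled to the library total.

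The 5 genes differed widely in level. A library of this kind counts each mRNA by a short tag beside a cut of the enzyme Nla III near its 3′ end, so that the counts are not scaled by mRNA length, and genes can still differ in how well their tag is recovered. In both libraries Argk came first by far, followed by TpnI and TpnCIIb, and the 95% counting intervals of these 3 genes did not overlap within a library. TpnCIIa and TpnT were lowest. TpnT stood above TpnCIIa in the water library and below it in the miR-184 library, with overlapping intervals in both, so that their order cannot be given. With 10186 of 11094 tags in the miR-184 library (91.8%, exact 95% interval 91.3% to 92.3%) and 7290 of 8016 in the water library (90.9%, 90.3% to 91.6%), Argk took most of the tags of the 5 genes.

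**Figure D1:**
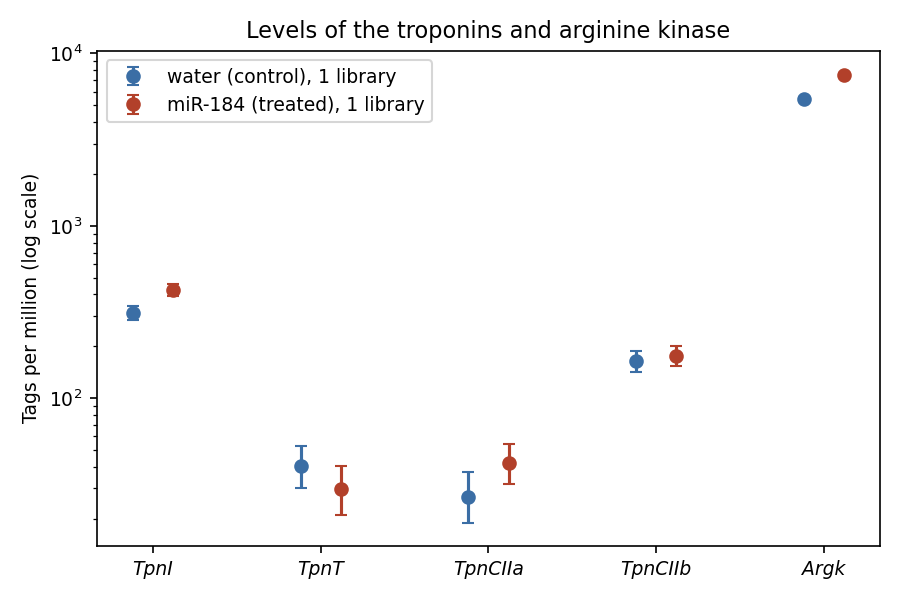
Level of each gene in TPM (log scale) in the library of larvae fed water and in the library of larvae fed miR-184; bars are exact 95% Poisson intervals, which cover counting error only and are narrower than the points for Argk. Argk lies highest in both libraries (5448 and 7527 TPM) and TpnT and TpnCIIa lowest, and the intervals of the libraries are apart for Argk and TpnI only.

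TpnI, the inhibitory subunit, had 573 tags in the miR-184 and 417 tags in the water library. This is a level of 423 TPM (exact 95% Poisson interval 389 to 460) against 312 TPM (282 to 343), and the intervals did not overlap. TpnI ranked 313th of all mRNAs by abundance in the miR-184 library and 403rd in the water library. The ratio was 1.36 (log2 ratio 0.44, exact 95% interval 0.26 to 0.63; Audic-Claverie exact test, two-sided, p = 1.93e-06, Benjamini-Hochberg adjusted over all mRNAs 2.52e-05). The negative binomial exact test gave p = 0.295 with a coefficient of variation of 0.2 for each library and p = 0.599 with 0.4. A log2 ratio at least as far from 0, in either direction, was found for 201 of the 574 mRNAs (35.0%) with a mean of 200 to 1000 tags.

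TpnT, the subunit that binds tropomyosin, had 40 tags in the miR-184 and 54 tags in the water library. Its level was 29.6 TPM (21.1 to 40.3) against 40.4 TPM (30.3 to 52.7), with overlapping intervals. The ratio was 0.73 (log2 ratio -0.45, exact 95% interval -1.08 to 0.17), a difference too small to be detected at this depth (Audic-Claverie exact test, p = 0.136). Given 54 tags in the water library, the miR-184 count would have had to be 30 or fewer, or 87 or more, for a p under 0.01. Its distance from 0 was reached or passed by 971 of the 1796 mRNAs (54.1%) with a mean of 10 to 50 tags.

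The calcium-binding subunit is represented by TpnCIIa and TpnCIIb. TpnCIIa had 57 tags in the miR-184 and 36 tags in the water library, or 42.1 TPM (31.9 to 54.6) against 26.9 TPM (18.8 to 37.2). Its log2 ratio of 0.65 was the largest of the 5 in size and had the widest exact 95% interval, from 0.02 to 1.29. The Audic-Claverie exact test gave p = 0.0427, which became 0.154 after Benjamini-Hochberg adjustment over all mRNAs, so that it did not pass. A miR-184 count of 64 or more would have been needed for an unadjusted p under 0.01. Of the 1796 mRNAs with a mean of 10 to 50 tags, 692 (38.5%) had a log2 ratio at least as far from 0 as TpnCIIa. TpnCIIb, the more abundant form, had 238 against 219 tags, or 176 TPM (154 to 200) against 164 TPM (143 to 187). Its log2 ratio was 0.10 (exact 95% interval -0.17 to 0.38; Audic-Claverie exact test, p = 0.470), which bounds the difference between these libraries, as far as counting error goes, at a ratio of 0.891 to 1.30. Of the 574 mRNAs with a mean of 200 to 1000 tags, 480 (83.6%) were at least as far from 0.

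Argk had 10186 tags in the miR-184 and 7290 tags in the water library. The levels were 7527 TPM (7382 to 7675) and 5448 TPM (5323 to 5574), far apart in terms of counting error. By abundance Argk ranked 22nd of all mRNAs in the miR-184 library and 30th in the water library. The ratio was 1.38 (log2 ratio 0.47, exact 95% interval 0.42 to 0.51; Audic-Claverie exact test, p = 7.51e-100, Benjamini-Hochberg adjusted over all mRNAs 1.31e-97). At this depth a miR-184 count of 7691, a ratio of 1.04, would already have had a p under 0.01. Of the 206 mRNAs that averaged 1000 tags or more, 78.2% had a p under 0.01, and 66 (32.0%) were at least as far from a log2 ratio of 0 as Argk. The robust SD of the log2 ratio over these mRNAs was 0.38, where counting error gives 0.04. With a coefficient of variation of 0.2 assumed, the negative binomial exact test gave p = 0.257 for Argk, and with 0.4 it gave p = 0.576. The difference of 2079 TPM in Argk made up 94.2% of the difference of 2208 TPM in the sum of the 5 genes, which took 0.820% of the miR-184 and 0.599% of the water tags.

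**Figure D2:**
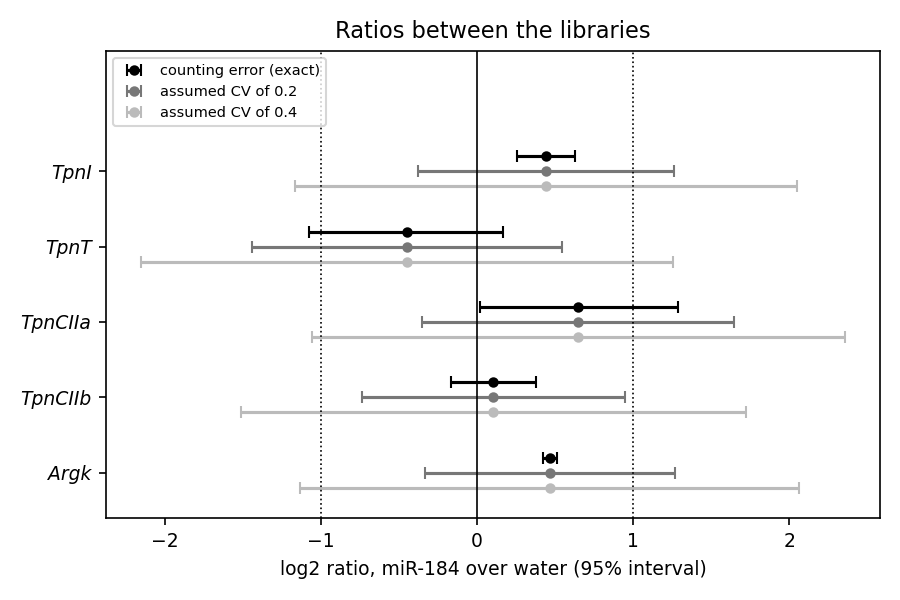
Log2 ratio of each gene, miR-184 over water, with 95% intervals for counting error alone (black) and with a coefficient of variation (CV) of 0.2 or 0.4 assumed for each library (grey); dotted lines mark a ratio over 2 in either direction. By counting error the intervals of Argk, TpnI and TpnCIIa exclude 0, and with an assumed CV of 0.2 none does. At that CV no ratio of this size could exclude 0 at any depth.

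Of the 5 genes 4 had a log2 ratio above 0, and over the 3818 mRNAs that averaged 10 tags or more this share was 50.9%, with a median log2 ratio of 0.01. The share was 56.3% among the mRNAs with at least 1000 tags on average and 58.0% among those with 200 to 1000. No dissection of the larvae is described, and in RNA of many tissues, fewer cells of a type and less RNA per cell cannot be told apart, and the part of these tags that came from muscle was not tested. The label of larval muscle could not be checked against other muscle genes. Of 22 further muscle symbols (thin and thick filament, calcium handling, energy supply and regulators), 5 had a row in the RefSeq table and 1, Twi, the mesoderm regulator twist, was counted. Twi was listed at 0 in the miR-184 and had 2 tags in the water library, both under a floor of 3 tags. Of the markers of other tissues, 0 of 3 epidermis and cuticle, 0 of 5 nervous system and 1 of 2 haemocyte symbols were counted. Of 6 fat body symbols 2 were counted. Their summed level was 43208 TPM in the miR-184 and 45191 TPM in the water library, mostly from HEX70b, a larval storage protein. The other, Tsf1, the iron carrier transferrin, had 198 against 287 tags, and its log2 ratio of -0.55 was farther from 0 than those of Argk and TpnI (Audic-Claverie exact test, p = 3.03e-05, and p = 0.206 in the negative binomial exact test with a coefficient of variation of 0.2). The haemocyte marker PPO, prophenoloxidase, had 102 against 28 tags and was called different by the study's thresholds. Its log2 ratio of 1.85 was farther from 0 than that of any of the 5 genes (Audic-Claverie exact test, p = 6.71e-11). With a coefficient of variation of 0.2 the negative binomial exact test gave p = 0.000374, lower than for any of the 5 genes. The part of these tissues in the ratios above was not tested.

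**Figure D3:**
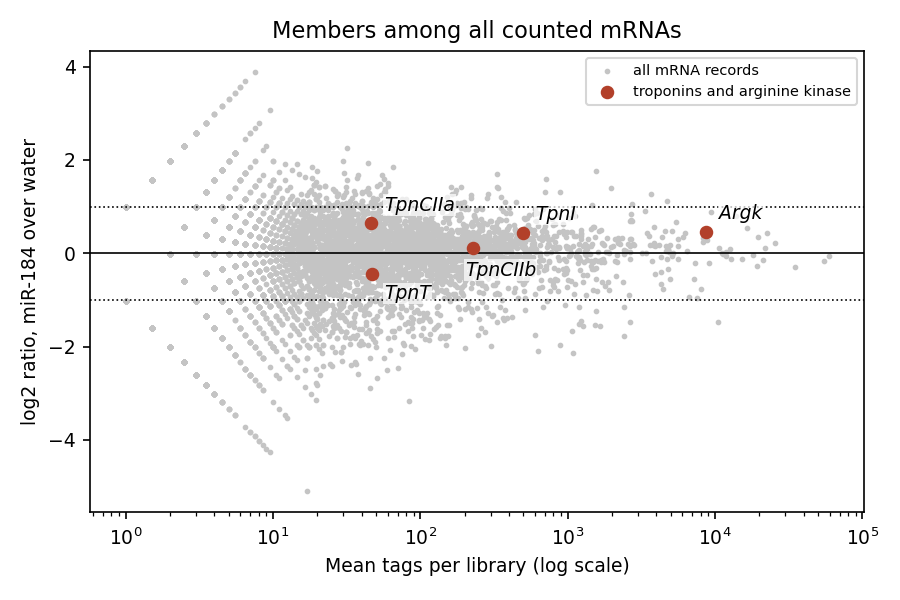
Log2 ratio (miR-184 over water) of every mRNA record against its mean number of tags per library (log scale), with the troponins and Argk in red and dotted lines at a ratio of 2 in either direction. All 5 genes lie between the dotted lines and inside the cloud of mRNAs of like abundance.

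Levels set against each other within a library do not depend on the scaling of the libraries. TpnCIIa made up 57 of 295 troponin C tags in the miR-184 library (19.3%, exact Clopper-Pearson 95% interval 15.0% to 24.3%) and 36 of 255 in the water library (14.1%, 10.1% to 19.0%). TpnCIIb supplied the remainder, 80.7% and 85.9%, and so was the main form of the pair in both libraries. The number of TpnCIIa tags per TpnCIIb tag was 0.239 in the miR-184 and 0.164 in the water library. This quotient was 1.46 times as high in the miR-184 library (log2 0.54, exact 95% interval -0.15 to 1.25), a difference that was not detectable at this depth (two-sided Fisher's exact test, p = 0.111). The RefSeq table lists 5 troponin C genes, and TpnCI, TpnCIIIa and TpnCIIIb were not analysed here, so that the shares are those of a pair and not of all troponin C.

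Among the troponin tags as a whole, TpnI made up 63.1% (59.9% to 66.3%) of 908 tags in the miR-184 and 57.4% (53.7% to 61.1%) of 726 tags in the water library. The troponin C forms together held 32.5% (29.4% to 35.6%) and 35.1% (31.6% to 38.7%). TpnT held 4.41% (3.17% to 5.95%) and 7.44% (5.64% to 9.59%). The proteins form a complex with 1 copy of each subunit, but the tag counts were unequal in both libraries, with TpnI far above TpnT. How much of this lies in the recovery of each tag was not tested.

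**Figure D4:**
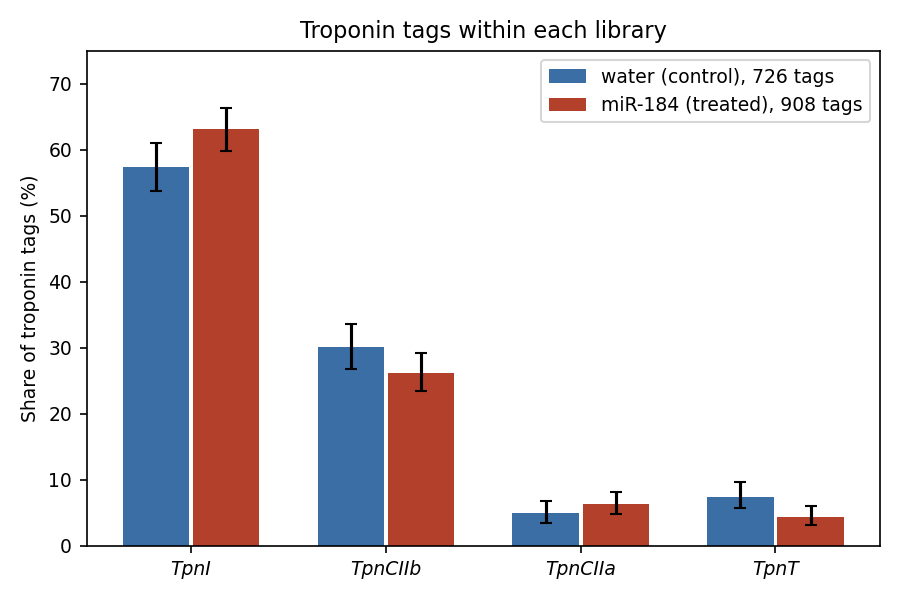
Share of each troponin (in percent) among all troponin tags of a library, in larvae fed water (726 tags) and fed miR-184 (908 tags); bars are exact 95% Clopper-Pearson intervals for counting error. TpnI leads in both libraries, ahead of TpnCIIb, and TpnT takes 7.44% of the tags in the water and 4.41% in the miR-184 library.

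The quotients of all 10 pairs of the 5 genes were compared between the libraries, and 4 had a Benjamini-Hochberg adjusted p under 0.05 over the 10 (two-sided Fisher's exact test). With a coefficient of variation of 0.2 put on every count, the interval of each of the 10 quotients included 0. The assumed value fixed this, since it alone makes the intervals too wide for folds of this size to exclude 0 at any depth. Fisher's test covers counting error only, which the spread of the log2 ratios over all mRNAs exceeded (robust SD 0.75 against 0.44 at 10 to 50 tags, 0.42 against 0.11 at 200 to 1000), and how often pairs of other mRNAs would pass was not tested. These pairs share genes, and 3 of the 4 had TpnT as the lower term. The number of Argk tags for each TpnT tag was 255 in the miR-184 and 135 in the water library (log2 of the fold 0.92, exact 95% interval 0.30 to 1.54; adjusted p = 0.0230). For TpnI over TpnT it was 14.3 and 7.72 (log2 0.89, 0.24 to 1.55; Fisher's exact test, adjusted p = 0.0231). For TpnCIIa over TpnT it was 1.43 and 0.667 (log2 1.10, 0.19 to 2.00; Fisher's exact test, adjusted p = 0.0321). The last of the 4 was Argk over TpnCIIb, with 42.8 and 33.3 (log2 0.36, 0.09 to 0.64; Fisher's exact test, adjusted p = 0.0275).

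Argk and TpnI stayed in nearly the same proportion. There were 17.8 Argk tags for each TpnI tag in the miR-184 and 17.5 in the water library (log2 of the fold 0.02, exact 95% interval -0.17 to 0.21; Fisher's exact test, adjusted p = 0.817). With the coefficient of variation of 0.2 this interval widened to -1.12 to 1.17.

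**Figure D5:**
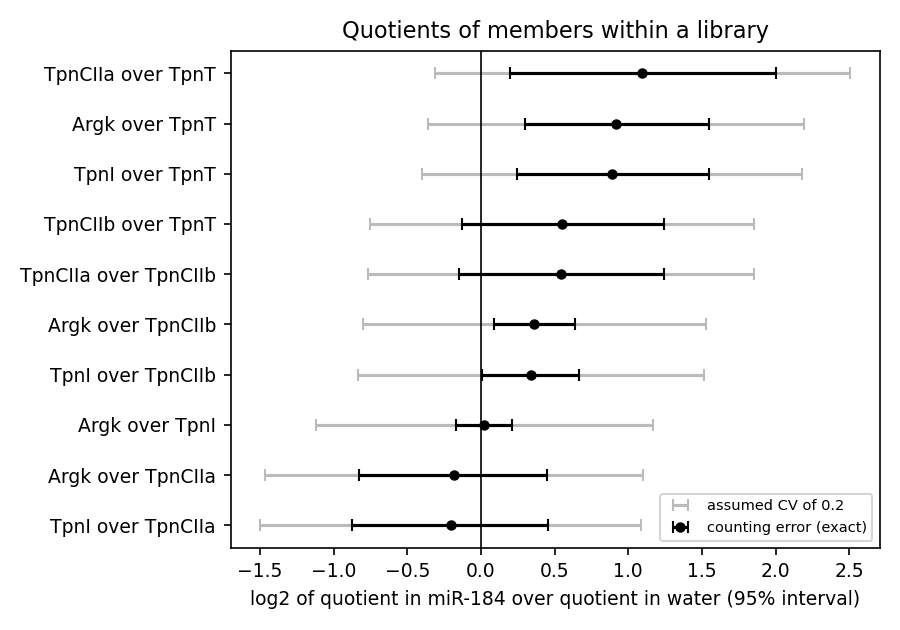
For each pair of genes, the log2 of the quotient of their tags in the miR-184 library over that in the water library, with the exact 95% interval for counting error (black) and the interval with a coefficient of variation (CV) of 0.2 assumed for each count (grey). The quotients over TpnT lie highest, Argk over TpnI lies at 0.02, and each grey interval includes 0, which the assumed CV alone ensures.

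Every gene of the 5 had several transcript records in the RefSeq table of Amel_HAv3.1, while the count table holds the curated mRNA record of each. The table lists 21 transcripts for TpnI and 9 for TpnT, genes known in Drosophila for their alternative splicing, and 4 for Argk, 4 for TpnCIIa and 3 for TpnCIIb. A tag near the 3′ end does not tell splice forms with a common end apart, so the counts cannot be read as those of single forms. Whether forms with another 3′ end were counted under the curated record was not tested. In the same table TpnT and Argk each overlap a long non-coding RNA gene (LOC113218844 and LOC113219276), and TpnCIIb overlaps the protein-coding gene LOC552209. Whether tags of these pairs were kept apart is not stated in the sources used here, and the values of TpnT, Argk and TpnCIIb are uncertain to that extent.

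Other mRNAs with nearly the same pair of levels were found for each gene, by the Euclidean distance of the log2 levels over the 2 libraries among records with a RefSeq gene name. LOC409114 was nearest to Argk, with 9790 against 7888 tags (distance 0.127), and LOC408799 followed with 9214 against 7250. LOC412227 was nearest to TpnI, with 544 against 406 tags (distance 0.0843). LOC412619 was nearest to TpnCIIb, with 245 against 220 tags (distance 0.0423). At the low counts of TpnT and TpnCIIa a record with identical counts existed for each, LOC725311 with 40 against 54 tags and LOC726733 with 57 against 36 tags. With 2 libraries, a like pair of levels is no more than a like level and a like ratio.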

How the data were processed

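The authors prepared 3′ tag libraries (DGE, cut with Nla III), and reads that mapped uniquely to a gene were summed. The aligner, build and any filter are not given in the sources used here. The deposited values are whole-number counts, although the labels call them TPM, and were used as tag counts. Single tags do not occur, the lowest count besides 0 being 2. PCR tags without molecular identifiers are not independent molecules, so intervals and the floor of 3 tags include no error but that of counting.

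Each count was divided by its library total, and 1 tag stood in for a 0 in ratios. As in the study, the Audic-Claverie test was used, here two-sided as 2 times the smaller tail, with p adjusted over all 5924 records. The quasi-likelihood test of edgeR needs replicates and could not be fitted. The negative binomial exact test and TMM factors came from edgeR 4.0.16 (R 4.3.3), and the rest from scipy 1.17.1, numpy 2.4.6 and pandas 2.3.3 under Python 3.11.15, with plots by matplotlib 3.10.9. Intervals are exact (Clopper-Pearson, Poisson, or conditional for quotients), and those with an assumed coefficient of variation are normal on the log scale. The Audic-Claverie, Fisher and negative binomial exact tests and the exact interval of the ratio were tried on simulated data.

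The members and lists were chosen with earlier results of these data known. The named genes were the 5 members, called or most abundant records of the symbol lists, and the 2 records nearest to each member. Tsf1, Ant and the genes that overlap or stand next to a member were named outside this rule, with their values known. Names were matched to RefSeq (Amel_HAv3.1) for 2801 records. The table holds no gene descriptions, so that lists could be matched by symbol only. The quotients other than that of the troponin C forms, and the call without a ratio threshold, were chosen after seeing the data. Sequences were not used here, and coordinates are left out because the study's build is unnamed.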

Additional observations from a re-analysis of the deposited data

How the results depend on the processing

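No paired analysis was possible because there is a single library of each kind, which also leaves nothing to compare once a library is left out. None of the 5 genes was called under any of 10 alternatives to the thresholds of the study, and their directions did not turn, with log2 ratios of 0.46 to 0.48 for Argk, 0.44 to 0.46 for TpnI, 0.63 to 0.66 for TpnCIIa, 0.10 to 0.12 for TpnCIIb and -0.46 to -0.43 for TpnT over the scalings and pseudocounts. These move all ratios by at most 0.02 and are a weak check. The variation assumed between libraries fixed the rest, since at either coefficient no mRNA within a 2-fold ratio had a p under 0.01. Without a ratio threshold, a setting chosen after seeing the data, 2 of the 5 genes and 1213 mRNAs had a p under 0.01. With a coefficient of variation of 0.2 the numbers were 0 genes and 262 mRNAs, and with 0.4 they were 0 genes and 22 mRNAs. At that coefficient of 0.2 the lowest p of the 5 was 0.219, for TpnCIIa. The number of mRNAs called with the ratio threshold was 534, and it was 861 with a ratio over 1.5, 262 under the lower and 22 under the higher assumed coefficient. The share of TpnCIIa missed its threshold by counting error alone, so that wider intervals are no check on it. The alternatives for the muscle list were not run, since 1 of its symbols was counted, nor were those for several records of a gene or for all troponin C genes. Depth limits TpnT and TpnCIIa, for which a ratio between 0.549 and 1.59 and between 0.467 and 1.76 could not reach a p under 0.01.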

Other observations

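Ant, the ADP/ATP translocase that exports ATP from mitochondria, is on no list fixed for this comparison and was picked after its values were seen. They are given as a description, with no p-value for Ant, and the intervals below do not allow for that choice. Ant had 397 tags in the miR-184 and 612 tags in the water library, or 293 against 457 TPM. Its log2 ratio was -0.64 (exact 95% interval -0.83 to -0.46 for counting error). Of all mRNAs, 11.6% were lower in the miR-184 library at an Audic-Claverie p under 0.01. There were 25.7 Argk tags for each Ant tag in the miR-184 and 11.9 in the water library. With a coefficient of variation of 0.2 put on each count the interval of the log2 fold between these quotients was -0.04 to 2.25. At this coefficient the interval would have included 0 at any depth.

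In the gene order of Amel_HAv3.1, LOC552191 stands next to TpnCIIb. Its counts of 56 and 37 tags (log2 ratio 0.58) were close to those of TpnCIIa, to which it was the second nearest record, and not to those of its neighbour. The gene on the other side of TpnCIIb, the ecdysone-response gene Br-c, had 8 tags in the miR-184 library and was listed at 0 in the water library. LOC551177, beside TpnT, was listed at 0 in the miR-184 library and at 8 tags in the water library. These neighbours were named with their values known, and whether neighbouring genes share a direction was not tested.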
